A study of Mus musculus with 69 samples.

Results

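The FOS, JUN and EGR immediate early genes were followed across all libraries of the study: Fos, Fosb, Fosl1, Fosl2, Jun, Junb, Jund, Egr1, Egr2 and Egr3, 10 of the 56953 genes in the count tables. Their rows were taken by name, as those whose Ensembl identifier carries one of these symbols. The members, and the gene lists used further on, were however chosen with earlier results of these data known. RNA-Seq counts were available for 69 libraries of cultured murine cells. Aortic smooth muscle cells in primary culture gave 16 libraries from wildtype animals (WT VSMC) and 15 (KO VSMC) from animals with a floxed Egfr gene and Cre driven by the SM22 promoter, which is active in smooth muscle. Heart endothelial cells in primary culture, labelled as wildtype, gave the other 38 (EC). All animals were labelled as male C57BL/6 mice, and their age is not given in the sources used here. Control cells, like all others, were kept in medium without serum and supplements and with albumin as the carrier of the fatty acids. HG + FFA were the metabolic stressors (20 mM glucose and, as labelled, 100 µM free fatty acids, where the study's text gives that dose for oleate and for palmitate each), AII + NA the humoral stressors (30 nM angiotensin II and, as labelled, 300 nM epinephrine, which the study's text calls norepinephrine), and ALL their combination. All cells were taken at 24 h. A set holds the libraries of 1 animal and passage treated together, numbered 1 to 4 (WT VSMC), 5 to 8 (KO VSMC) and 9 to 18 (EC). In tests of stressor effects, with the set as a block, p-values measure how the change varies between animals. In tests of Control levels they measure the spread of levels between animals. EC sets 17 and 18 are an exception, since they share an animal. Each VSMC condition had n = 4, except ALL in KO VSMC with n = 3 (set 5 was not analysed there), and each EC condition had n = 10, except Control and AII + NA with n = 9 (sets 10 and 15).

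FOS and JUN proteins pair through leucine zippers to form the transcription factor AP-1, and EGR proteins are zinc finger factors that bind GC-rich sites. Growth factors, angiotensin II and adrenergic agonists switch on many of these genes within minutes through ERK and other kinases. These kinases act on serum response factor (SRF) and its partners at CArG boxes in promoters, and EGFR is a receptor upstream of ERK. Transcripts switched on in this way are mostly short-lived and fall again within hours, so that a 24 h time point shows their standing level and not the first burst.

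Several libraries stood apart before any comparison. Counts per library lay between 17166133 and 43240489. Egfr averaged 339 FPM (fragments per 1000000 counts after TMM scaling within each cell type) in WT VSMC (SD 85.3, n = 16) and ranged from 0.521 to 39.4 FPM in KO VSMC, where the 3 libraries of set 5 held 33.1 to 39.4 FPM. In EC it ranged from 2.19 to 172 FPM, with 7.63 to 12.8 FPM in set 15, 2.19 to 3.17 FPM in set 16 and 10.8 to 19.0 FPM in set 18. The labelled cell type was checked against marker lists, summed per library. The 8 endothelial markers summed to 53.8 to 4891 FPM in EC and to 1.18 to 63.3 FPM in WT VSMC, with 53.8 to 135 FPM in EC sets 9, 11 and 13 and at least 509 FPM in every other EC set. The 8 smooth muscle markers summed to 353 to 2038 FPM in WT VSMC and to 214 to 3991 FPM in EC, and the 6 fibroblast markers to 3789 to 11193 FPM in WT VSMC and to 455 to 11287 FPM in EC, so that each cell type held markers of more than its own label. In bulk RNA, fewer cells of a type and less RNA per cell cannot be told apart. EC sets 15 and 16 carry the animal numbers of KO VSMC sets 7 and 6 although they are labelled as wildtype, and their genotype was not tested. EC sets 9 and 10 carry the animal numbers of WT VSMC sets 1 and 2. All EC came from another batch of the labels than all VSMC.

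Promoters of the members were searched for short motifs of factors that serum and growth factor signals are known to act on. In the 400 bases before the annotated start (GRCm39), searched for 9 members, a CArG box lay before Fos, Fosb, Egr2 and Egr3, compared with 2.22% of 21247 promoters. Egr1 was not searched. Boxes are shown because the EGR genes hold all DEG against Control among the members and Egr1, Egr2 and Fos correlated, as described further on. Those of Fos, Fosb and Egr2 are printed 5′ to 3′ on the strand of the gene, with the CArG box in capitals and 20 bases on either side.
Fos, 303 bases before the start, chr12:85520335-85520384, plus strand: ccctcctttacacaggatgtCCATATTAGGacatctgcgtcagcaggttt
Fosb, 266 bases before the start, chr7:19044213-19044262, minus strand: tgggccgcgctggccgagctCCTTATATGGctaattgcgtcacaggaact
Egr2, 65 bases before the start, chr10:67373607-67373656, plus strand: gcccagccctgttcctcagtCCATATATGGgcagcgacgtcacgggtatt
Egr2 had another box 368 bases before its start. The EGR site GCGNGGGCG lay before Fosb and Jund (5.09% of promoters), the cAMP response element TGACGTCA before Jund (1.88%), the ETS core CCGGAA before Egr2 and Junb (15.4%), the TATA box TATAAA before Fos, Fosl1 and Junb (19.2%), and the AP-1 site TGANTCA before none of the 9 (9.86%), on either strand. A match describes the letters and does not show that a factor binds.

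All 10 genes were detected and tested in every cell type. Levels between genes are compared per kilobase of exon (FPKM). In Control WT VSMC the order began with Jund (79.4 ± 13.5 FPKM, SD, n = 4), which encodes the JUN protein that resting cells hold, and Junb (52.5 ± 26.0), whose ranges overlapped. Fosl2, a FOS relative, followed with 25.1 ± 6.71 FPKM, then Jun, the founding JUN gene, with 15.8 ± 2.19 and Egr1 with 15.6 ± 6.32. Fos held 3.22 ± 0.365 FPKM, Egr2 1.75 ± 1.10, Egr3 1.26 ± 0.602, Fosl1 0.790 ± 0.417 and Fosb 0.775 ± 0.123. The ranges of neighbours in this order overlapped except between Junb and Fosl2 and between Egr1 and Fos. KO VSMC kept Jund (87.8 ± 19.7 FPKM), Junb (38.8 ± 9.77), Fosl2, Jun, Egr1 and Fos in the same order, with gaps between the ranges of Jund and Junb and of Egr1 and Fos. In EC Junb (37.5 ± 21.1 FPKM, n = 9) and Jund (34.3 ± 13.5) led, followed by Egr1 (20.0 ± 18.2), and the ranges of all neighbours overlapped. Exons of Fosl1 and Jund are overlapped by genes on the opposite strand over 69.1% and 52.6% of their bases, and those of Jun and Junb over 16.6% and 13.4%. Since the strand setting of the counting was not stated, reads of the overlapping genes may be included.

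Control levels were compared between cell types over all genes by edgeR's quasi-likelihood test with Benjamini-Hochberg adjustment (FDR). Of the 10 members, Fosb and Jund were lower in EC than in WT VSMC, against 12% of all genes that differed in either direction and 5.35% that were lower. Fosb, an inducible FOS gene, held 3.91, 4.79, 5.79 and 4.86 FPM in WT VSMC, and in EC its lowest, median and highest values were 0.828, 1.33 and 3.49 FPM, so that the groups did not overlap (log2FC of -1.64, SE 0.34, FDR = 0.0106). Jund held 164, 116, 133 and 117 FPM in WT VSMC and 28.1, 61.8 and 102 FPM as lowest, median and highest in EC, again without overlap of the FPM (log2FC of -1.30, SE 0.28, FDR = 0.0113). FPM was scaled within each cell type, whereas the test scaled both cell types together. The FPM of the 2 cell types are therefore not on one scale, and the gaps between them are approximate. Cell type and batch cannot be told apart here. Between KO VSMC and WT VSMC no member passed (edgeR; none at an unadjusted p under 0.05, where 12.2% of all genes had such a p and 0.00622% an FDR under 0.05). Egr1 gave a log2FC of -0.68 (SE 0.33, unadjusted p = 0.0656, FDR = 0.419) and Egr2 one of -1.38 (SE 0.68, unadjusted p = 0.0717). The Control values of Egr1 were 56.5, 101, 37.4 and 85.4 FPM in WT VSMC and 49.7, 62.8, 34.7 and 32.9 FPM in KO VSMC, and these ranges overlapped.

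Stressor effects were tested within each cell type with the set as a block. Differentially expressed genes (DEG) had an FDR under 0.05 in both edgeR and DESeq2, a |log2FC| of at least 0.64 and a mean of at least 3 FPM in a group. In WT VSMC under ALL stressors, 2 of the 10 members, Egr1 and Egr3, were DEG, both lower (2.18% of all genes were DEG, and 0.964% were lower). Egr1, a factor induced by growth signals and injury in vascular cells, held 53.9, 33.7, 13.6 and 36.3 FPM in sets 1 to 4, compared with 56.5, 101, 37.4 and 85.4 FPM in Control. All 4 sets were lower, yet the ranges of the conditions overlapped, since set 1 was nearly level (log2 ratio of -0.07) while sets 2 to 4 lay between -1.23 and -1.57. The fitted log2FC was -1.05 (SE 0.27, FDR = 0.0262). Egr3, a close relative of Egr1, held 4.37, 3.72, 1.49 and 2.34 FPM against 4.79, 9.29, 2.69 and 6.95 FPM in Control, again lower in all 4 sets (log2FC of -0.94, SE 0.25, FDR = 0.0314). Egr2, the third of the EGR genes, was lower in sets 2, 3 and 4 and higher in set 1 (7.05, 2.30, 0.346 and 4.37 FPM, compared with 4.37, 9.88, 1.53 and 8.08 in Control), and its log2FC of -0.86 (SE 0.39) had an FDR of 0.210.

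Of the JUN genes, Jun held 48.1, 28.0, 26.8 and 34.8 FPM under ALL stressors and 53.7, 53.5, 40.1 and 54.9 FPM in Control, lower in all 4 sets. Its log2FC of -0.57 (SE 0.12, FDR = 0.00818) was below the size asked of a DEG although the test was passed, as it was by 7.45% of all genes. Junb gave -0.33 (FDR = 0.402) and Jund -0.02 (FDR = 0.943). Among the FOS genes, Fos, the partner that dimerizes with every JUN protein, held 12.1, 4.33, 3.28 and 3.44 FPM against 8.47, 8.08, 6.53 and 7.32 FPM. It was thus lower in sets 2 to 4 and higher in set 1, with a log2FC of -0.55 (FDR = 0.136). Fosb was split in the same way, with 10.998 FPM in set 1 and 2.23 to 3.53 FPM in the others, while Fosl1 (0.06) and Fosl2 (-0.07) had log2FC near 0.

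Single sets decided how many members were called. Without set 1 6 members were DEG under ALL stressors, all lower, namely Fos (log2FC of -0.99), Fosb (-0.75), Jun (-0.72), Egr1 (-1.42), Egr2 (-1.57) and Egr3 (-1.27), while 2.23% of all genes were DEG. Without set 2 or set 4 none was DEG (1.45% and 1.53% of all genes were), and without set 3 Egr3 alone was (2.12%). Markers moved in the same comparison: of the 8 smooth muscle markers 5 were higher and of the 8 endothelial, 6 fibroblast and 4 pericyte markers 5, 4 and 4 were lower at an unadjusted p under 0.05. Of all genes 21.7% had such a p, and 10.8% were lower with it. The smooth muscle sum was 361 to 1173 FPM in Control and 1076 to 1509 FPM under ALL stressors, and the endothelial sum 1.87 to 63.3 and 1.18 to 30.3 FPM. Cd3e, which marks T cells, was at 0 in every WT VSMC library. The part of these markers in the results was not tested.

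Under the single stressor pairs no member was DEG in WT VSMC, with 0.284% of all genes called under HG + FFA and 0.0414% under AII + NA, and edgeR or DESeq2 alone called none. Jun was lower in 4 of 4 sets under HG + FFA with 48.3, 39.5, 27.7 and 45.95 FPM (log2FC of -0.34, unadjusted p = 0.00939 in edgeR, FDR = 0.244), the only member with an unadjusted p under 0.05 there (11.2% of all genes). Under AII + NA no member had an unadjusted p under 0.05 (9.42% of all genes). Egr1, Egr2 and Egr3 were each lower in 4 of 4 sets, with log2FC of -0.35, -0.76 and -0.41, and Jun and Jund were higher in 4 of 4 sets, with 0.12 and 0.20. Under HG + FFA the sets of WT VSMC did not move together. Egr1 held 13.9 FPM in set 3, less than its Control value of 37.4 FPM, but 69.7, 102 and 79.5 FPM in sets 1, 2 and 4.

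**Figure D1:**
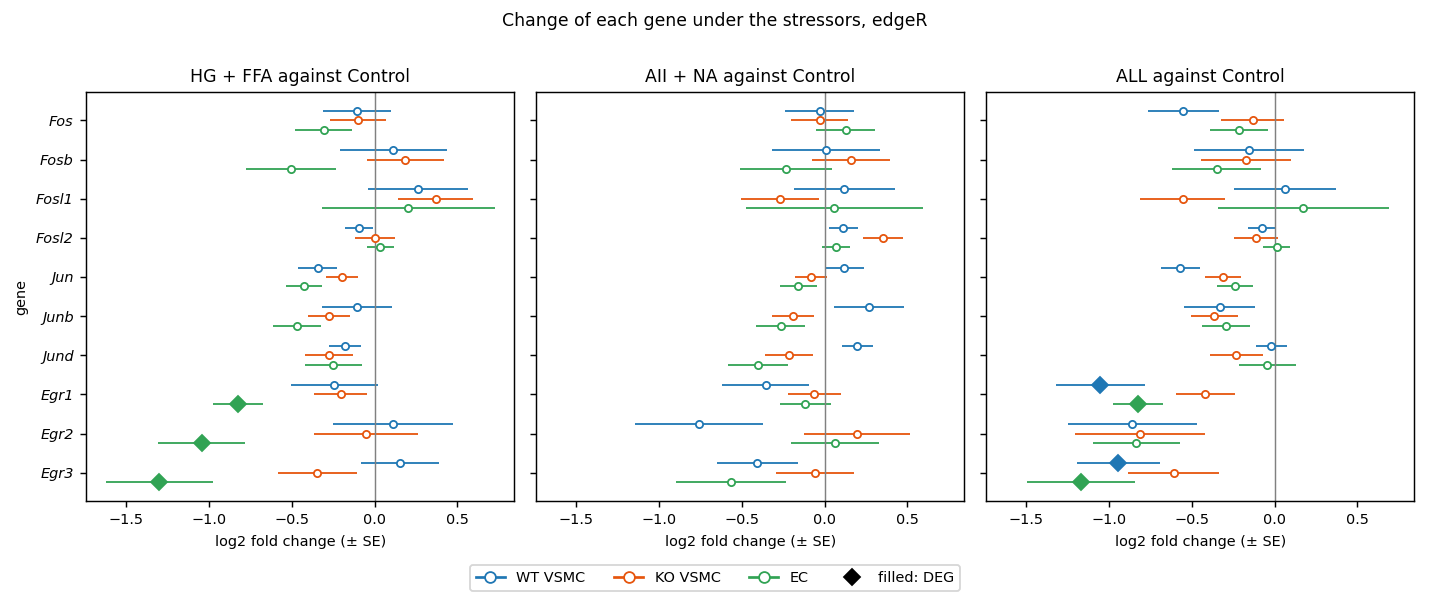
Fitted log2 fold change of each gene (x axis, with SE as bars) under HG + FFA, AII + NA and ALL stressors against Control. Colours are cell types and filled diamonds are DEG. All 7 diamonds belong to EGR genes and lie below 0, 2 in WT VSMC and 5 in EC.

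In KO VSMC no member was DEG under any stressor, in edgeR and DESeq2 together or in either alone (0.285% of all genes were called under HG + FFA, 0% under AII + NA and 0.314% under ALL stressors). Under ALL stressors, with n = 3, all 10 members had a log2FC below 0, and 5 had an unadjusted p under 0.05, namely Fosl1 (-0.56), Jun (-0.31), Junb (-0.36), Egr1 (-0.42) and Egr3 (-0.61), where 5.63% of all genes were lower at that level. Members share these libraries and 16 of their 45 pairs correlated within sets with r above 0.5, so their signs are not independent. The smallest FDR was 0.302, for Jun. In this comparison 5 of the 6 fibroblast, 3 of the 4 pericyte and 2 of the 8 smooth muscle markers were also lower at an unadjusted p under 0.05. None of these was DEG. The fibroblast sums were 1453 to 6397 FPM in Control and 1234 to 1662 FPM under ALL stressors. Set 5, with 5622 to 6397 FPM, had no library under ALL stressors, so the upper ends cannot be compared. Over their conditions, sets 6, 7 and 8 held 1463 to 1902, 1662 to 2594 and 1234 to 1673 FPM. The part of these markers in the result was not tested. Jun held 57.9, 22.8 and 27.5 FPM in sets 6, 7 and 8 against 71.0, 29.3 and 36.7 FPM in Control, lower in each. Egr1 held 42.3, 22.1 and 31.6 FPM against 62.8, 34.7 and 32.9 FPM, also lower in each. Under HG + FFA Junb had an unadjusted p of 0.0466 (log2FC of -0.27; 12.4% of all genes were under 0.05) in edgeR, and without set 5 its log2FC was -0.46 with an FDR of 0.0301, below the size asked of a DEG. Without set 5, 1.72% of all genes were DEG in that comparison, and without set 7 the share was 0%. Under AII + NA Fosl2 had an unadjusted p of 0.00929 (log2FC of 0.35, FDR = 0.509; 9.76% of all genes were under 0.05). Fosl2 held 297, 200, 192 and 167 FPM under AII + NA and 313, 149, 139 and 108 FPM in Control, higher in sets 6 to 8 and not in set 5. Set 5 held more Egfr RNA than sets 6 to 8, and also higher fibroblast and leukocyte marker sums. Its leukocyte sums were 125 to 149 FPM, against at most 38.3 FPM in sets 6 to 8. The cause of the difference was not tested.

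Stressor effects were compared directly between WT VSMC and KO VSMC, since a call in one and not in the other is no difference. No member differed in the joint edgeR model under HG + FFA, AII + NA or ALL stressors, where 0%, 0% and 0.0109% of all genes had an FDR under 0.05, and none did when any set, including set 5, was left out. Jund under AII + NA was the only member with an unadjusted p under 0.05 (difference of 0.42 in log2FC, p = 0.0301, FDR = 0.406), where 11.9% of all genes had such a p. For Egr1 under ALL stressors the log2FC was -1.05 in WT VSMC and -0.42 in KO VSMC, a difference of -0.63 with an approximate 95% interval from -1.34 to 0.08.

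In EC the EGR genes were lower under HG + FFA, and 3 of the 10 members were DEG, Egr1, Egr2 and Egr3, against 0.647% of all genes and 0.397% that were lower. Egr1 had a lowest, median and highest value of 27.8, 36.4 and 232 FPM in Control and of 14.4, 23.4 and 184 FPM under HG + FFA. The groups overlapped widely because sets differed, but within sets it was lower in 9 of 9, by log2 ratios from -0.09 to -1.89 (log2FC of -0.83, SE 0.15, FDR = 0.000963). Egr2 had 0.597, 2.35 and 8.42 FPM in Control and 0.236, 1.24 and 2.45 FPM under HG + FFA, lower in 9 of 9 sets (log2FC of -1.04, SE 0.26, FDR = 0.0193), on 6 to 66 reads per library under HG + FFA. Egr3 had 0.760, 4.00 and 20.4 FPM in Control and 0.248, 1.21 and 6.59 FPM under HG + FFA and was also lower in 9 of 9 sets (log2FC of -1.30, SE 0.32, FDR = 0.0178), on 4 to 173 reads. Among the JUN genes Jun was lower in 8 of 9 sets (log2FC of -0.42, FDR = 0.0215, passed by 3.53% of all genes) and Junb in 8 of 9 (-0.47, FDR = 0.0592 in edgeR and 0.0202 in DESeq2), both under the size asked of a DEG. No FOS gene passed, with log2FC from -0.50 for Fosb to 0.20 for Fosl1.

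Under ALL stressors 2 of the 10 members were DEG in EC, Egr1 and Egr3, against 0.641% of all genes and 0.42% that were lower. Egr1 had 14.7, 21.4 and 214 FPM as lowest, median and highest, lower than Control in 8 of 9 sets (log2FC of -0.82, SE 0.15, FDR = 0.00106). Egr3 had 0.495, 1.21 and 10.1 FPM and was lower in 9 of 9 sets (log2FC of -1.17, SE 0.33, FDR = 0.0393). Egr2 was lower in 6 of 9 sets (log2FC of -0.83, FDR = 0.0712 in edgeR and 0.0282 in DESeq2). Under AII + NA no member was DEG, as was the case for all genes (0%), and edgeR or DESeq2 alone called none. Jund alone had an unadjusted p under 0.05 (log2FC of -0.40, p = 0.0315, FDR = 0.719), against 6.67% of all genes. Egr3 was at 0 FPM in set 18 under AII + NA, a count of 0 where the other libraries of that set had values of 1.18 to 3.61 FPM.

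Egr1 was the member whose call in EC rested least on single sets. Under HG + FFA it stayed DEG without any one set, with the animal in place of the set as the block, and without sets 15 and 16, sets 12 and 14 or sets 9, 11 and 13 (log2FC of -0.86, -0.93 and -0.72), whereas Egr2 and Egr3 were not DEG in any of these last 4 fits or without set 12, and Egr2 not without set 9, 13 or 17 either. In these 4 fits 0.286%, 0.508%, 0.339% and 0.716% of all genes were DEG. Under ALL stressors Egr1 stayed DEG without any one set, and Egr3 only without set 16 or set 18. With sets 12 and 14 left out, Egr1 (log2FC of -1.05) and Egr2 (-1.23, FDR = 0.0274 in edgeR) were DEG and Egr3 was not. In that fit 0.449% of all genes were DEG. Without sets 9, 11 and 13, in which endothelial markers were lowest, no member was DEG under ALL stressors (0.67% of all genes were), and Egr1 had a log2FC of -0.61 with an FDR of 0.0304. Fibroblast and pericyte markers moved beside these genes. Of the 6 fibroblast markers 4 and of the 4 pericyte markers 2 were lower under HG + FFA at an unadjusted p under 0.05, of which 2 and 1 were DEG, and the fibroblast sum was 738 to 11287 FPM in Control and 455 to 8829 FPM under HG + FFA. Of the 8 endothelial markers 2 were higher and 2 lower. Of all genes 16.9% had an unadjusted p under 0.05 under HG + FFA, and 8.5% were lower with it. Under ALL stressors 3 fibroblast markers and 1 pericyte marker were lower, with none a DEG, and 1 endothelial marker was higher and 3 lower. There 16.2% of all genes had an unadjusted p under 0.05, and 9.35% were lower with it. The part of these markers was not tested.

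**Figure D2:**
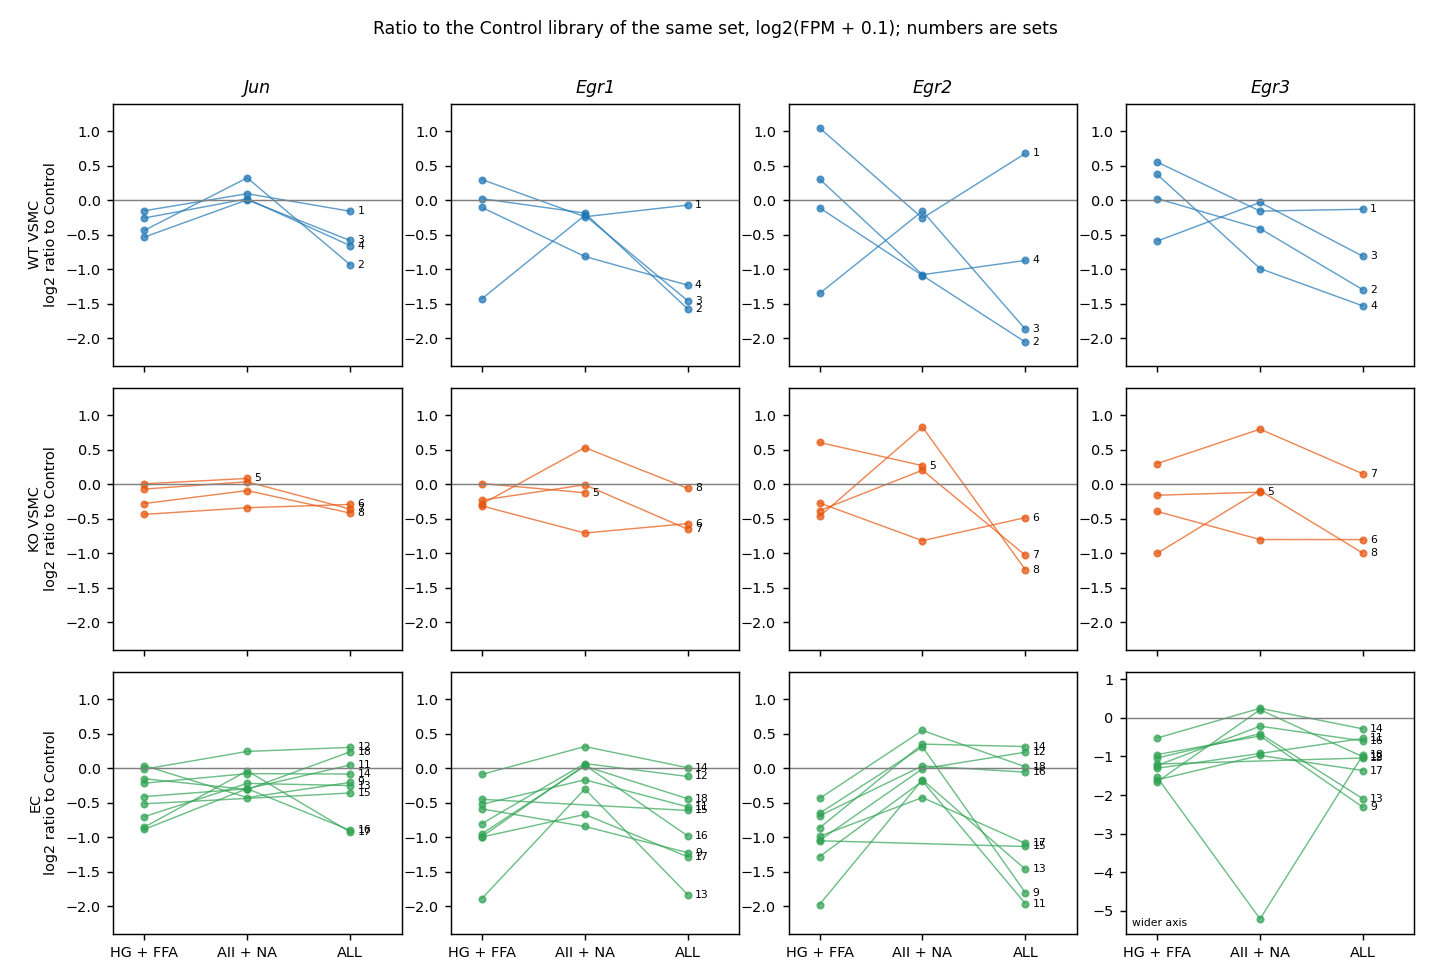
Log2 ratio of a library to its set's Control (y axis, on log2(FPM + 0.1)) under HG + FFA, AII + NA and ALL stressors (x axis) for Jun, Egr1, Egr2 and Egr3. Each line is a set with its number, and rows are cell types. The panel of Egr3 in EC has a wider axis because of set 18, which had a count of 0 under AII + NA. Under HG + FFA all 9 EC lines of the EGR genes start below 0, while the WT VSMC lines of these genes start on both sides of 0.

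The effect of HG + FFA on the EGR genes was set against WT VSMC in a joint model. The differences, WT VSMC minus EC, were 1.44 for Egr3 (unadjusted p = 0.00622, approximate 95% interval 0.46 to 2.42), 1.09 for Egr2 (p = 0.0262, with 2.05% of all genes under 0.05) and 0.59 for Egr1 (p = 0.0613), and none passed the FDR over all genes (edgeR, FDR = 1 for each, with 0% of all genes passing). Under ALL stressors no member had an unadjusted p under 0.05, as 6.48% of all genes did, while 0.511% of all genes passed the FDR. Under AII + NA Jund had one of 0.0391 (difference of 0.60, FDR = 0.732), where 6.5% of all genes had such a p and 0.0465% passed the FDR.

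Departure from additivity is the log2FC of ALL stressors less the sum of the log2FC of both pairs given alone. It was not detected for any member in the 3 cell types (edgeR, 0% of all genes with an FDR under 0.05 in each). In WT VSMC all 10 departures were below 0 and none had an unadjusted p under 0.05 (1.72% of all genes), with -0.69 for Egr3 (p = 0.0648) and -0.35 for Jun (p = 0.0529). Their signs are not independent, since the members share libraries and 21 of their 45 pairs correlated within sets with r above 0.5. In KO VSMC Fosl2 had -0.47 (p = 0.0171, with 6.59% of all genes under 0.05). In EC Jun (0.34), Junb (0.44) and Jund (0.61) had departures above 0 with unadjusted p of 0.0332, 0.0373 and 0.0179 (8.42% of all genes). When ALL stressors were set against AII + NA, Jun was lower in WT VSMC (log2FC of -0.69, FDR = 0.00838) and Egr1 in EC (-0.71, FDR = 0.00467), where 1.36% and 3.22% of all genes passed. Against HG + FFA no member passed in edgeR, where 0.0414%, 0% and 0% of all genes did (WT VSMC, KO VSMC and EC). At an unadjusted p under 0.05 were 3, 1 and 0 members, compared with 10.8%, 2.91% and 5.14% of all genes, and DESeq2 alone passed Egr3 in WT VSMC (log2FC of -1.08, FDR = 0.00398).

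The other genes of the same signals were counted by list. For AII + NA no gene of these lists was DEG in any cell type, where 0.0414%, 0% and 0% of all genes were (WT VSMC, KO VSMC and EC). Of 36 other immediate early genes tested in WT VSMC under ALL stressors, Dusp1, a phosphatase of MAP kinases, was higher (log2FC of 0.91) and Klf2 (-1.04), a flow-responsive Krüppel-like factor, and Gem (-0.68), a small GTPase, were lower. In that comparison 2.18% of all genes were DEG. Klf2 was also lower in WT VSMC under HG + FFA (-0.87), in KO VSMC under ALL stressors (-1.06) and in EC under HG + FFA (-0.82), and Dusp1 was higher in KO VSMC under ALL stressors (0.67). The shares of all genes called there were 0.284%, 0.314% and 0.647%. Of the 37 genes of this list tested in EC, 10 were lower and 2 higher under HG + FFA at an unadjusted p under 0.05 in edgeR. Under ALL stressors 10 were lower and 3 higher. Of all genes 8.5% and 9.35% were lower at that level. The median log2FC of this list under ALL stressors was -0.05 (WT VSMC), -0.03 (KO VSMC) and -0.09 (EC), compared with -0.01 over all genes in WT VSMC and EC. Under AII + NA in WT VSMC the median was 0.23 against -0.01 over all genes, with 15 of 36 higher and 3 lower at an unadjusted p under 0.05, where 9.42% of all genes had such a p. In the same comparison 5 of the 8 smooth muscle markers were higher, 1 of them a DEG, and 2 of the 4 pericyte markers lower at that p, with smooth muscle sums of 361 to 1173 FPM in Control and 831 to 2038 FPM under AII + NA, and their part was not tested.

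Regulators upstream of the members showed no DEG. None of the 17 SRF and TCF regulators tested in VSMC or the 16 tested in EC was DEG under any stressor, nor were the AP-1 partners (10 tested in VSMC, 12 in EC) or the 2 genes tested among Egr4 and the EGR corepressors Nab1 and Nab2. The share of all genes called was 2.18% in WT VSMC under ALL stressors and at most 0.647% in every other comparison with Control. At such shares lists of this size can hold no DEG, so their absence sets these genes apart from no others. At an unadjusted p under 0.05, 2 of the 17 regulators were higher and 2 lower in WT VSMC under ALL stressors, where 21.7% of all genes had such a p. Of 13 ERK feedback genes Spry4, an inhibitor of receptor tyrosine kinase signalling, was higher in WT VSMC under ALL stressors (log2FC of 0.93), and none was DEG elsewhere. Of the AP-1 and EGR target genes (20 tested in WT VSMC and EC, 21 in KO VSMC) Hmox1, heme oxygenase, was a DEG under ALL stressors in KO VSMC (log2FC of 0.91) and EC (0.74), higher in both. The median of the target list under ALL stressors was 0.01 (WT VSMC), 0.23 (KO VSMC) and 0.04 (EC).

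Correlations between members within sets are given as a description without a test, and other gene pairs were not computed as a reference. The libraries of a set share an animal, a passage and the time of treatment, so that they are not independent points. Over the deviations of log2(FPM + 0.1) from the set mean in 69 libraries, Egr1 and Egr2 had r = 0.824, Jun and Junb 0.760, Junb and Jund 0.675, Jun and Egr1 0.669 and Fos and Egr1 0.667, while Fos and Jund had -0.07, Fosl1 and Egr3 -0.07 and Fosl2 and Egr2 -0.01. The median over all 45 pairs was 0.300, with 12 pairs above 0.5. Within WT VSMC Egr1 had r = 0.903 with Egr2, 0.892 with Egr3 and 0.863 with Fos. Within EC Fos and Egr3 had r = 0.153, while Egr1 and Egr2 had 0.797. Junb and Jund had 0.803 in EC and 0.301 in WT VSMC.

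**Figure D3:**
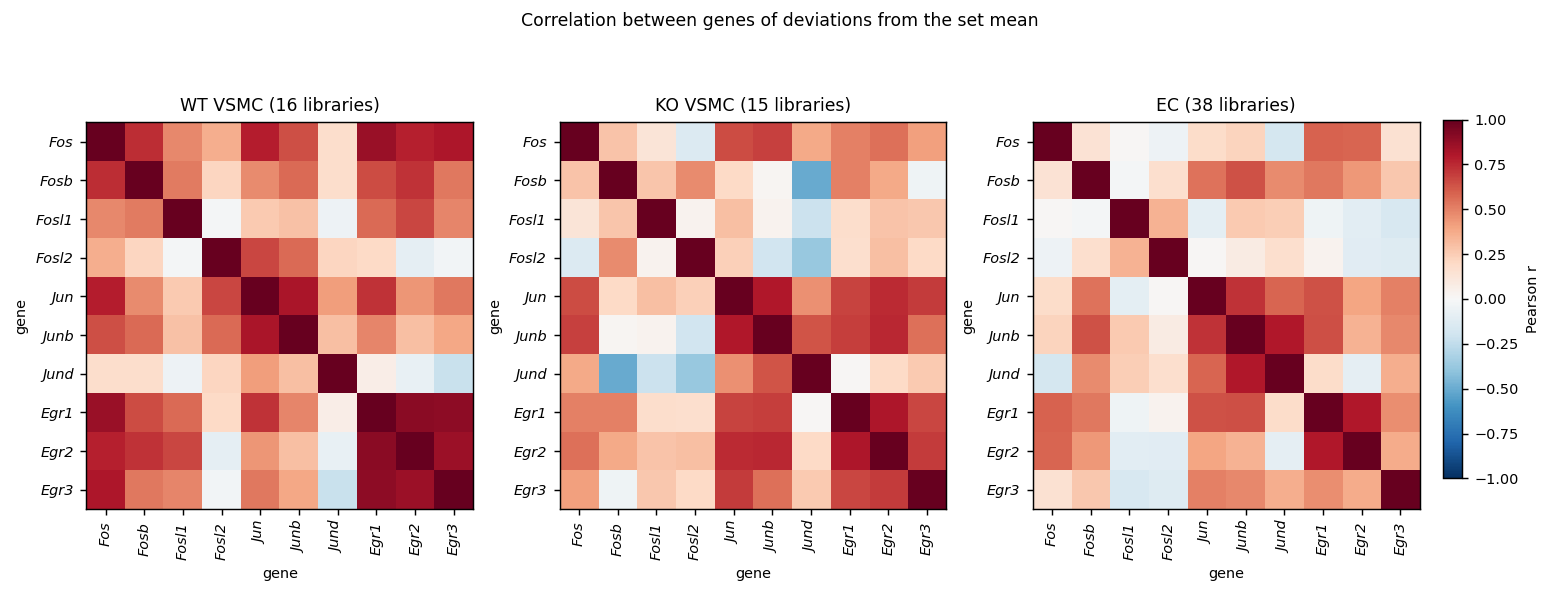
Pearson correlation between each pair of genes (both axes) of their deviations from the set mean, in WT VSMC (16 libraries), KO VSMC (15) and EC (38), with the colour scale for r on the right. Egr1, Egr2, Egr3 and Fos form pairs with r of at least 0.774 in WT VSMC, while Egr3 is paler in EC.

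Among 12924 genes, those most like Fos over all libraries were Egr1 (r = 0.667), Clca3a2 (0.652), Egr2 (0.633), Nr4a1 (0.605) and Csf2rb2 (0.588). Those most like Egr1 were Egr2 (0.824), Cmklr1 (0.781), Klf2 (0.724), Tmem39a (0.718) and Thbs3 (0.693). Nr4a1 is itself an immediate early gene, an orphan nuclear receptor. These lists depended on the cell type: within WT VSMC 0 of the 5 genes of Fos and 1 of the 5 of Egr1 came back, within KO VSMC 0 and 0, and within EC 2 and 2.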

How the data were processed

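The authors aligned poly(A) RNA-Seq reads to mm39 with HISAT2 2.1.0, assigned them with featureCounts, counting multimapping reads over exons, and deposited the counts per gene without normalization. The strand setting is not given in the sources used here. From these counts edgeR 4.0.16 (filterByExpr, TMM, quasi-likelihood test) and DESeq2 1.42.0 in R 4.3.3 were fitted per cell type with condition and set, p-values being adjusted by Benjamini-Hochberg over 16905, 17538 and 17148 genes in WT VSMC, KO VSMC and EC. Intervals are 1.96 SE on either side.

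Sets pair the libraries, since the study describes each as 1 animal, passage and time, and deviations from the condition mean had r of at least 0.442 within sets. Median counts per library were 30093006, 29812564 and 24355492. The fits were tested on simulated data.

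Symbols, exons and promoters came from GENCODE vM39 on GRCm39. Figures were drawn with Python 3.11.15 and matplotlib 3.10.9. All members were named throughout, other listed genes where DEG, and the 5 genes most like Fos and Egr1. A target gene and a promoter sequence are not reported here. The members and lists were chosen with earlier results of these data known. Alternatives covered both tools, scaling, filters, thresholds, the block, each set left out and pseudocounts.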

Additional observations from a re-analysis of the deposited data

Results flagged for a closer look

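In 110 groups of 4 to 10 libraries, the library farthest from the others was measured against Dixon's 95% critical value on log2(FPM + 0.1), which chance passes in about 1 of 20 groups, and 5 passed. Fosb in WT VSMC under HG + FFA was 12 FPM in set 1, with the other sets between 3.77 and 4.45 FPM. Fosl1 in WT VSMC under ALL stressors was 4.19 FPM in set 1 and 0.926 to 1.08 FPM in the others. Egr2 in WT VSMC under HG + FFA was 0.538 FPM in set 3 and 9.15 to 10.0 FPM in the others. Jun in WT VSMC Control was 40.1 FPM in set 3 and 53.5 to 54.9 FPM in the others. Fosl2 in EC under HG + FFA was 122 FPM in set 18 and 185 to 275 FPM in the others. The cause was not tested for any of them. No stressor effect on a member differed between WT VSMC and KO VSMC or EC by the joint test, and none moved in opposite directions in all sets of both.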

How the results depend on the processing

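Of 216 recomputed counts of members 186 stayed within 1.5 times their value, where a 0 that stayed at 0 was taken as unchanged. Many comparisons had no member called, so this share does not measure how stable the calls were. Of 511 other recomputed values 425 were unchanged, 49 lost and 27 gained significance, 10 moved and 0 reversed. The log2FC among them were only of members with an unadjusted p under 0.05 in the main edgeR fit, which makes reversals unlikely. Levels, similar genes and motifs were also counted there and have no direction. Without the replicate block, the pairing by set, no member was called for ALL stressors in WT VSMC or for HG + FFA or ALL stressors in EC (0 in place of 2, 3 and 2, with 0%, 0.0117% and 0.0117% of all genes called), and the calls of ALL stressors against AII + NA in WT VSMC and EC went from 1 to 0 each (0% and 0.0175% of all genes). With a log2FC of at least 1, 1 member was called under ALL stressors in WT VSMC and 1 in EC (0.781% and 0.187% of all genes). Leaving out one set gave 0 to 6 members for ALL stressors in WT VSMC, 1 to 3 for HG + FFA in EC and 1 to 2 for ALL stressors in EC. The animal as the block gave 1 and 1 in EC for HG + FFA and ALL stressors, and leaving out sets 15 and 16 gave 1 and 1. Further fits were chosen after seeing the data. Leaving out sets 12 and 14 gave 1 for HG + FFA and, for ALL stressors, Egr1 and Egr2 in place of Egr1 and Egr3. Leaving out sets 9, 11 and 13 gave 1 and 0. DESeq2 alone passed 1 member for ALL stressors against HG + FFA in WT VSMC, 1 against AII + NA in KO VSMC and 2 against AII + NA in EC (0, 0 and 1 in edgeR), where it passed 1.33%, 1.71% and 5.24% of all genes. The cause was not tested. Without the count filter the members called against Control in WT VSMC and EC remained those of the filtered fit. Reads were few for Egr2, Egr3, Fosb and Fosl1, which limits the precision of their values.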

Other observations

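The spread between sets exceeded that between conditions for every member and cell type except Jun in WT VSMC. The share of the variance of log2(FPM + 0.1) that lay between sets in EC was 92.1% for Fos, 92.6% for Jun and 87.25% for Egr1, compared with 1.79%, 2.59% and 8.12% for the condition. Jun in WT VSMC had 37.3% between sets and 49.1% between conditions. EC sets 12 and 14, from different animals, held the highest mean levels of Fos, Jun and Egr1 over their 4 libraries (24.8 and 26.4, 80.4 and 72.6, and 206 and 205 FPM). In KO VSMC set 6 held 4.50 to 8.74 FPM of Fosl1, where the other KO VSMC libraries held 0.952 to 3.07 FPM.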
